A study of Flaveria robusta and Flaveria ramosissima and Flaveria trinervia with 18 samples.

Results

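Transcript abundance in newly expanded mature leaves was compared between the C4 species Flaveria trinervia and the C3–C4 intermediate species Flaveria ramosissima, both kept under the control light of 500 µmol m−2 s−1. The comparison covered 12299 of 30040 gene rows (40.9%), namely those whose mean reached 1 TPM or more in each species. TPM gives transcript abundance per unit of gene length, as a part of the library total. Of these rows, 6626 were numbered up to Gene19000 and 5673 above it, and the 2 blocks are given separately. Each species had 3 control libraries, and the whole series holds 18 libraries from F. robusta (C3), F. ramosissima and F. trinervia at 500 and 1400 µmol m−2 s−1. No genetic change or chemical was applied in any group. Each photosynthetic type is held by a single species here, so the type of photosynthesis and all other differences between the species cannot be told apart. Whether replicates were separate plants is not stated in the labels, so a p-value here sets a difference against the spread between libraries, and that spread may be technical.

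In C4 leaves, CO2 is first fixed in mesophyll cells by phosphoenolpyruvate carboxylase, carried as a C4 acid into the bundle sheath and released there around Rubisco. C3–C4 intermediates such as F. ramosissima recapture photorespired CO2 by moving glycine into the bundle sheath, and some of them also run part of a C4 cycle. High transcript abundance of enzymes and transporters of the C4 cycle, and lower abundance of photorespiratory enzymes, are known marks of C4 leaves. The rows of the table carry only gene numbers, which the files do not pair with gene names. Photosynthetic genes and leaf markers therefore could not be looked up, rows are described as groups by number, abundance and size of the difference, and 4 row numbers are printed as examples.

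The rows were not divided alike between the species. F. trinervia reached a mean of 1 TPM in 14848 rows and F. ramosissima in 18346, so that the compared rows were 82.8% of the former and 67% of the latter. A further 6047 rows reached it in F. ramosissima alone, 2549 in F. trinervia alone and 9145 in neither. The rows reached in F. ramosissima alone took 17.9% ± 0.182 of its listed TPM (SD, n = 3), with 11 of them above 1000 TPM and the highest at 11757 TPM, and 1598 of them also reached 1 TPM in F. robusta under control light. Those reached in F. trinervia alone took 3.01% ± 0.127 of its TPM, with 4 of them above 1000 TPM and a highest mean of 2435 TPM. Of these 2549 rows, 1356 also reached 1 TPM in F. robusta under control light. The compared rows therefore took 96.8% ± 0.179 of the listed TPM in F. trinervia and 81.8% ± 0.148 in F. ramosissima. Just inside the limit, 259 rows had a lower species mean between 1 and 1.1 TPM and a median of 2.86 TPM in the other species, and just outside it 274 rows lay between 0.9 and 1 TPM with a median of 2.73 TPM.

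The 6 libraries grouped by species. Across the compared rows, log2 values of replicates were correlated at r between 0.946 and 0.992 within F. trinervia and between 0.925 and 0.944 within F. ramosissima, against 0.689 to 0.734 between the species. Replicates 1 and 2 of F. trinervia were the closest pair, and replicate 3 stood somewhat apart from both. The median SD of log2 values between replicates was 0.169 in F. trinervia and 0.331 in F. ramosissima. Listed TPM summed to between 913489 and 928665 per library, and read depth is unknown because TPM does not keep it.

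Most of the compared rows differed between the species beyond the spread of replicates, and most of those that differed were higher in F. trinervia. In a limma model of log2(TPM + 1) over all 18 libraries, 7533 of the 12299 rows (61.2%) had an adjusted p below 0.05, 5943 of them higher in the C4 species and 1590 lower. Over all 23162 rows fitted, which include those reached in 1 species only, 67.1% were called, 35.7% higher and 31.4% lower. A row is written below as called when it passed this threshold. The 3 libraries of one species lay wholly above the 3 of the other for 8258 rows, 6555 with F. trinervia above and 1703 with F. ramosissima above, which is 67.1% of the compared rows, against 72.1% of all rows fitted (39.7% and 32.4%). When the 6 libraries were fitted alone, 7169 compared rows were called, 5711 higher and 1458 lower, and 6790 were called in the same direction in both fits. Among all rows fitted, the fit of the 6 libraries called 63.7%, 35% higher and 28.7% lower. The 4766 rows without a call had a median absolute log2 difference of 0.349 with a median SE of 0.31, and 204 of them differed by 2-fold or more without passing.

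**Figure D1:**
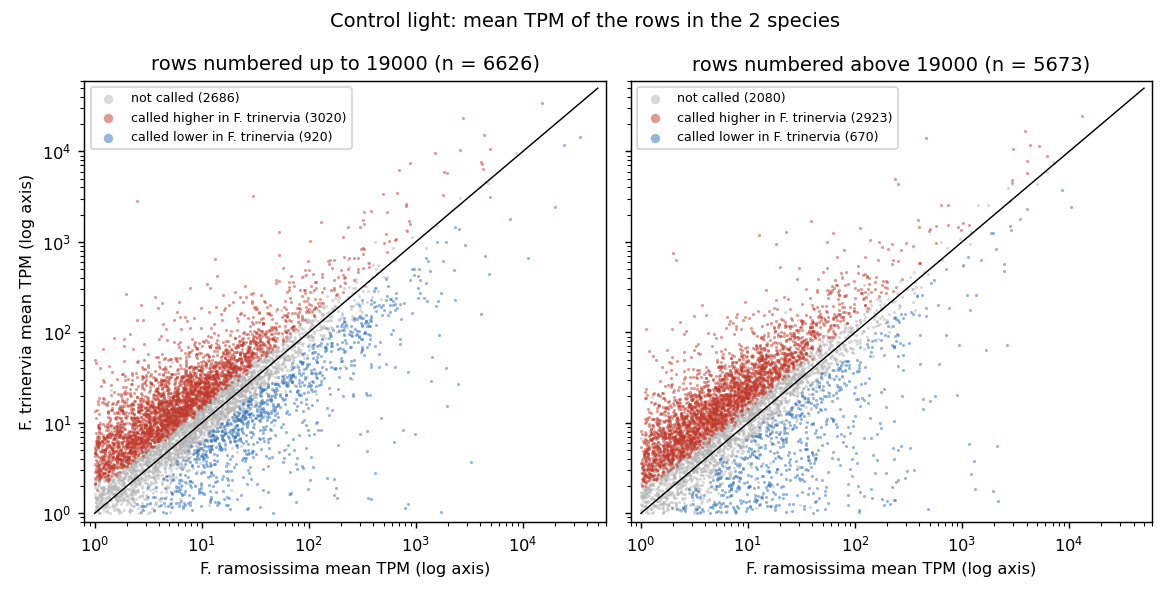
Mean TPM of each row under control light in F. ramosissima (x axis, log scale) and F. trinervia (y axis, log scale, n = 3 libraries each), in rows numbered up to 19000 (left) and above 19000 (right); red and blue points are rows called higher and lower in F. trinervia, grey points are not called, and the line marks equal values. Called rows above the line number 3020 and 2923, and those below it 920 and 670.

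The excess of higher rows depended on how the libraries were set against each other. The median log2 difference, F. trinervia minus F. ramosissima, was 0.63, and the quartiles were −0.12 and 1.31. All 3 F. trinervia libraries had a higher median row (12.1, 12.1 and 13.8 TPM) than all 3 F. ramosissima libraries (8.62, 6.13 and 7.76 TPM), for which the exact permutation test gave p = 0.1, as low as 3 against 3 can reach. When the compared rows of each library were brought to the same total, a setting added after the data were examined, the median was 0.42. In that setting 4921 compared rows were called higher and 1970 lower, while 30.6% of all rows fitted were called higher and 33.3% lower. After median-ratio scaling, which sets the typical row expressed in all 18 libraries to no change, the median was −0.031. With this scaling 3325 compared rows were called higher and 3501 lower, while 22.5% of all rows fitted were called higher and 40.6% lower. Rows higher in F. trinervia thus made up 78.9% of calls among compared rows as deposited and 48.7% after this scaling. All 3325 higher rows of the scaled values were among the 5943 called as deposited, and all 1590 rows called lower as deposited were also called lower after scaling. Quantile normalization, by contrast, gave 6773 higher and 1698 lower compared rows, while 43% of all rows fitted were called higher and 27.3% lower.

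**Figure D2:**
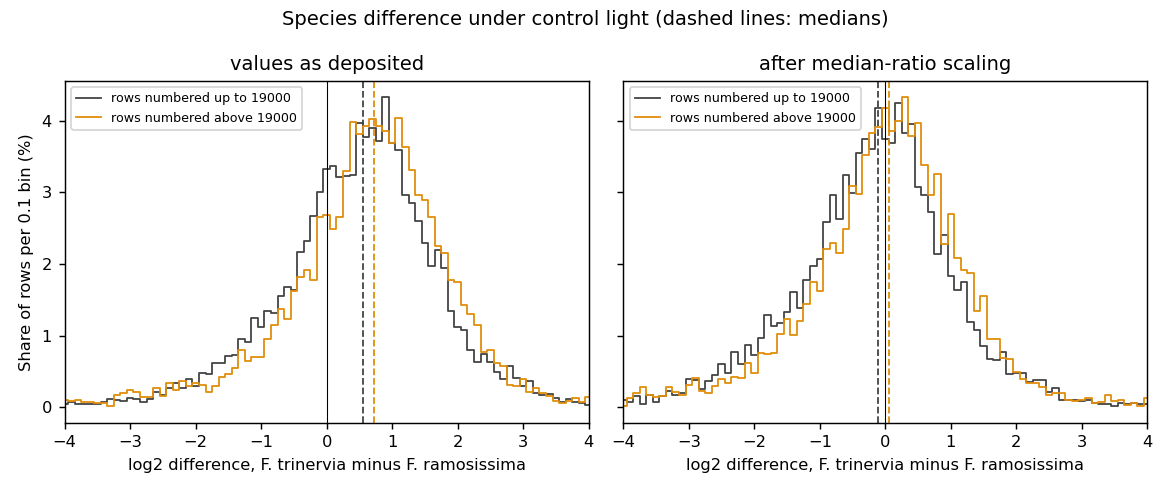
Distribution of the log2 difference between the species under control light (x axis) as the share of rows per bin of 0.1 (y axis, %), for values as deposited (left) and after median-ratio scaling (right), with dashed lines at the medians of rows numbered up to 19000 (grey) and above 19000 (orange). Medians were 0.56 and 0.72 as deposited and −0.11 and 0.060 after scaling; rows beyond ±4 are not drawn.

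Among compared rows, those numbered above 19000 were shifted further towards F. trinervia than those numbered up to 19000. Of the 5673 rows above 19000, 3593 (63.3%) were called, 2923 higher and 670 lower, with a median log2 difference of 0.72. Among the 6626 rows up to 19000, 3940 (59.5%) were called, 3020 higher and 920 lower, with a median of 0.56. For all rows fitted, the called share was 73.7% above 19000 (29.5% higher, 44.2% lower) and 59.8% up to 19000 (42.5% higher, 17.4% lower). Over all rows fitted, the block above 19000 thus leaned towards lower calls and the block up to 19000 towards higher ones. The further shift above 19000 therefore holds for the compared rows only. After median-ratio scaling, 1712 compared rows above 19000 were called higher and 1431 lower, and 1613 up to 19000 were called higher and 2070 lower. Among compared rows, lower calls thus outnumbered higher ones up to 19000 but not above. Of all fitted rows, 18.1% were called higher and 51.3% lower above 19000, and 27.3% higher and 28.9% lower up to 19000. The gap between the block medians within a library, relative to the mean of the 6 libraries, was 0.0934, 0.0888 and 0.0668 in F. trinervia and −0.0875, −0.0812 and −0.104 in F. ramosissima. The species did not overlap in this gap (exact permutation p = 0.1, adjusted to 0.105 over 21 library values), and after median-ratio scaling the block medians were still apart, at −0.11 up to 19000 and 0.060 above. The blocks also differed in which rows entered the comparison. Above 19000, 46.8% of 14940 rows were listed at 0 in all F. trinervia control libraries and 0.897% in all F. ramosissima control libraries, while up to 19000 the shares were 26.3% and 25.7% of 15100 rows. As a result, 88% of the rows above 19000 reached in F. trinervia were also reached in F. ramosissima, but only 53.6% in the reverse direction. The part of these zeros in the shift of the block was not tested.

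Abundance classes were set by the mean over the 6 control libraries, and as deposited the class from 100 to 1000 TPM had the lowest median difference of the 4 classes. Of its 855 rows, 327 were called higher and 297 lower, and its median log2 difference was 0.1, against 0.61 over 5637 rows of 1 to 10 TPM, 0.73 over 5705 rows of 10 to 100 TPM and 0.49 over 102 rows above 1000 TPM. Of all 1001 fitted rows in that class, including those reached in 1 species only, 34.4% were called higher and 42.6% lower, so lower calls outnumbered higher ones there. Quantile normalization gave medians of 0.89, 0.65, 0.38 and 0.33 from the lowest to the highest class, with rows above 1000 TPM lowest. Within each library the median of this class was set against that of all compared rows, which gave −0.223, −0.262 and −0.277 in F. trinervia and 0.206, 0.387 and 0.25 in F. ramosissima. These values did not overlap (exact permutation p = 0.1, adjusted to 0.105). In rows numbered up to 19000, 167 of 516 compared rows of the class were called higher and 204 lower, and the median was −0.18. In rows above 19000, 160 of 339 were called higher and 93 lower, with a median of 0.43. Of all fitted rows of the class, 31.6% were called higher and 43.1% lower up to 19000, and 38.1% higher and 41.8% lower above. The difference between the blocks within the class was not tested. After median-ratio scaling, 180 compared rows of the class were called higher and 431 lower, while 19.7% of all fitted rows of the class were called higher and 55.9% lower. From the lowest to the highest class, calls were made in 54.4%, 65.9%, 73% and 81.4% of the compared rows, against 71.5%, 71.1%, 76.9% and 82.1% of all fitted rows. After median-ratio scaling the shares were 46.7%, 61.7%, 71.5% and 61.8%, against 66.1%, 67.5%, 75.6% and 63.2%, and the highest class no longer had the most calls.

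**Figure D3:**
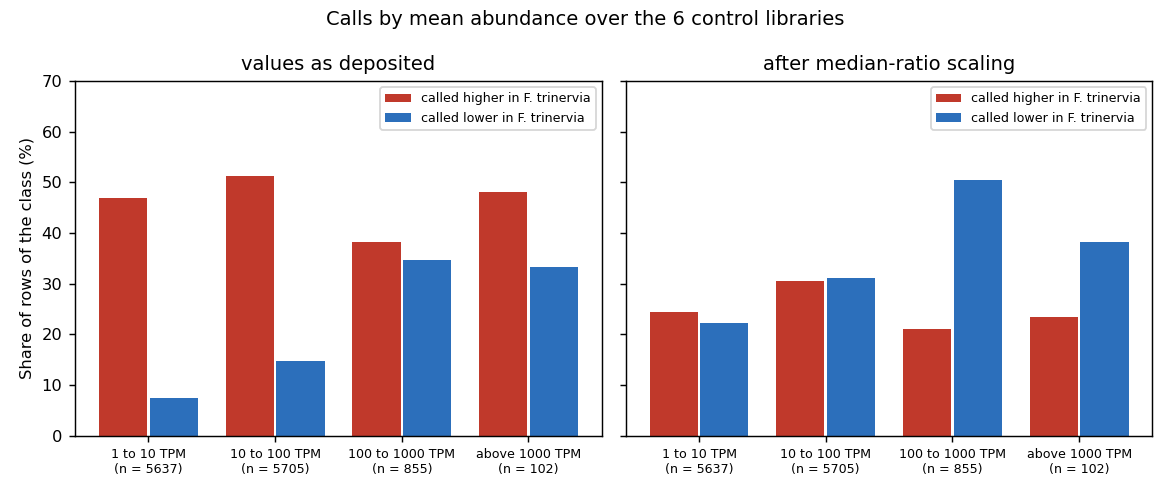
Share of rows (y axis, %) called higher (red) and lower (blue) in F. trinervia in 4 classes of mean TPM over the 6 control libraries (x axis), for values as deposited (left) and after median-ratio scaling (right). Lower rows make up 34.7% of the class from 100 to 1000 TPM as deposited, against 7.45% of the class from 1 to 10 TPM (42.6% and 33.8% of all fitted rows of these classes).

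Shares of the listed TPM followed the same classes. Compared rows above 1000 TPM took 49.3% ± 1.9 in F. trinervia and 39.7% ± 2.88 in F. ramosissima, those of 10 to 100 TPM took 20.9% ± 0.9 and 15.2% ± 1.9, and those of 1 to 10 TPM took 3.75% ± 0.355 and 2.43% ± 0.486 (SD, n = 3). Only the class from 100 to 1000 TPM took less in the C4 species, at 22.9% ± 0.574 and 24.4% ± 0.548. The species did not overlap in any of these 4 shares (exact permutation p = 0.1 each, adjusted to 0.105). They are shares of all listed TPM, of which the compared rows took 96.8% in F. trinervia and 81.8% in F. ramosissima. The choice of rows thus enters each share, and shares within the TPM of the compared rows were not tested.

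Differences of 4-fold or more were found for 1664 of the called rows, 1175 higher and 489 lower (9.55% and 3.98% of the compared rows). Among all rows fitted, 8.1% were called higher and 16.2% lower by at least 4-fold. After median-ratio scaling the excess among compared rows turned round, with 434 rows higher and 929 lower. Of all rows fitted, 4.17% were then higher and 20.2% lower. At 16-fold or more, 97 compared rows were higher and 110 lower as deposited, and 41 higher and 161 lower after median-ratio scaling. All rows fitted were 1.07% higher and 5.57% lower as deposited, and 0.656% higher and 6.81% lower after that scaling. Among rows at 1 TPM or more in each of the 6 libraries, 61 were higher and 82 lower by at least 16-fold. A pseudocount of 0.1 gave 140 higher and 138 lower at 16-fold, and quantile normalization gave 119 and 101. Which side held more rows at 16-fold thus changed with the setting. At the other end, 27.4% of called rows differed by less than 2-fold. In rows numbered up to 19000, 44 were higher and 45 lower by at least 16-fold, and in rows above 19000 the counts were 53 and 65. The log2 difference ranged from −9.81 to 9.71.

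Few rows carried 50% of the TPM that differed. Summed over rows with a higher mean in F. trinervia, the gain was 426924 TPM, and 42 rows held 50% of it. Losses summed to 281176 TPM. The compared rows took 96.8% of the listed TPM in F. trinervia and 81.8% in F. ramosissima, so the choice of rows enters both sums. Of the losses, 38 rows held 50%. All 80 rows were called with no overlap between the species, which the choice largely builds in because they were picked by their control differences. Of all rows fitted, 67.1% were called and 72.1% did not overlap. In the high light libraries, which the choice did not use, the 42 rows took 32.1% ± 0.996 of TPM in F. trinervia and 12.8% ± 1.53 in F. ramosissima, and the 38 rows took 7.56% ± 0.324 and 21.0% ± 1.04 (SD, n = 3). All 38 losses and 32 of the 42 gains were called in the same direction under high light, where 32.8% of all rows fitted were called higher and 30.3% lower. After median-ratio scaling all 38 losses and 26 of the 42 gains were still called under control light, against 63.1% of all rows fitted. In F. robusta under control light the 42 rows took 15.2% ± 0.593 and the 38 rows 21.3% ± 2.5.

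The most abundant compared rows of the species overlapped only in part. Of the 100 compared rows with the highest mean, 52 were shared (52% of each list), and of the 10 highest 4 were shared. Among the 100 highest compared rows of F. trinervia, 68 were called higher and 15 lower in that species, and among the 100 highest of F. ramosissima 61 were called lower and 23 higher in F. trinervia. Each list was picked by control means that the calls compare, so a lean towards its own species is built in. Of all rows fitted, 35.7% were called higher and 31.4% lower. The 100 highest compared rows of a library took 50.9% ± 2.01 of its listed TPM in F. trinervia and 42.1% ± 2.94 in F. ramosissima. The 10 highest compared rows took 19.5% ± 0.41 and 16.7% ± 0.35. All compared rows took 96.8% in F. trinervia and 81.8% in F. ramosissima, so the choice of rows enters these shares.

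Among rows numbered up to 19000, Gene14852 had the largest rise of those that reached 5 TPM on average in each species, did not overlap and were called in both fits. It had 3530, 3344 and 2664 TPM in the F. trinervia libraries and 16.8, 27.5 and 46.6 TPM in those of F. ramosissima. The lowest F. trinervia library was thus far above the highest of F. ramosissima, with a log2 difference of 6.77 (SE 0.41, limma adjusted p = 9.27e-10). F. robusta had 66.4 ± 25.1 TPM (66.0, 91.6 and 41.5 TPM), which overlapped F. ramosissima but not F. trinervia. Under high light Gene14852 had 1090 ± 51.7 TPM in F. trinervia and 59.0 ± 34.8 TPM in F. ramosissima, so that the log2 difference was 4.37. The species difference was larger under control light by 2.40 (SE 0.58, limma adjusted p = 0.0395), a call that did not hold without F. trinervia control replicate 1 (adjusted p = 0.105) or replicate 2 (0.107), without F. ramosissima control replicate 1 (0.0737), after median-ratio scaling (0.0599) or with a pseudocount of 0.1 (0.0502).

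Gene07052 showed the largest fall among rows numbered up to 19000 under the same rule. The F. ramosissima libraries had 1735, 2392 and 1681 TPM and those of F. trinervia 11.6, 7.11 and 27.2 TPM. Its log2 difference was −7.07 (SE 0.36, limma adjusted p = 9.86e-11), a mean 127 times higher in F. ramosissima. In F. robusta the row had 1.25 ± 0.297 TPM (SD, n = 3), so the intermediate species held a high level that neither of the other two species had. Under high light the levels were 2283 ± 322 TPM in F. ramosissima and 10.4 ± 0.876 TPM in F. trinervia, close to those under control light.

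For rows numbered above 19000, Gene25356 had the largest rise, and 1 library decides its level in F. ramosissima. It had 1675, 1291 and 926 TPM in F. trinervia, and 68.0, 0.06 and 0 TPM in F. ramosissima. Only replicate 1 of F. ramosissima carried it to a mean of at least 5 TPM. Without that library the log2 difference, 8.24 with all libraries (SE 1.69, limma adjusted p = 0.000517), was 10.26 (limma adjusted p = 4.78e-05), a value that depends on the pseudocount because the remaining libraries are at or near 0. The same pattern stood in the high light libraries of F. ramosissima, where replicate 1 had 171 TPM and replicates 2 and 3 had 0 and 0.14 TPM. F. robusta had 252 ± 128 TPM, between the other two species.

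Gene21098 had the largest fall among rows numbered above 19000. It had 1842, 2524 and 1961 TPM in F. ramosissima and 6.26, 5.72 and 4.77 TPM in F. trinervia, a mean 378 times higher in the intermediate species. The log2 difference was −8.32 (SE 0.23, limma adjusted p = 7.08e-14). In F. robusta it had 1705 ± 471 TPM, near that of F. ramosissima, so that the low level was found in F. trinervia alone among the 3 species. High light left it at 2073 ± 351 TPM in F. ramosissima and 7.13 ± 1.19 TPM in F. trinervia.

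**Figure D4:**
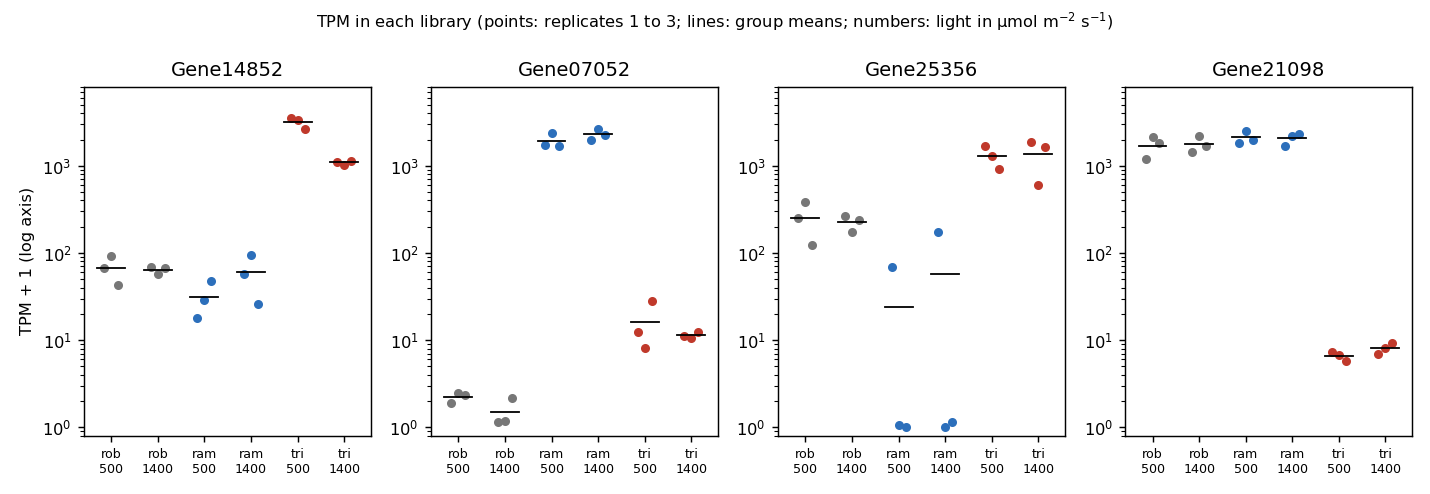
TPM + 1 (y axis, log scale) of the 4 rows in every library of F. robusta (rob, grey), F. ramosissima (ram, blue) and F. trinervia (tri, red) at 500 and 1400 µmol m−2 s−1; points are replicates and black lines are group means. Gene14852 and Gene25356 are high in F. trinervia, Gene07052 is high in F. ramosissima alone and Gene21098 is low in F. trinervia alone.

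The species difference was largely repeated under high light, in libraries that the choice of rows did not use. There, 7188 of the 12299 rows (58.4%) were called, 5485 higher and 1703 lower in F. trinervia, against 63.1% of all rows fitted, 32.8% higher and 30.3% lower. Of the 5943 rows called higher under control light, 4462 (75.1%) were called higher under high light and 5667 had a positive difference. Of the 1590 rows called lower, 1107 (69.6%) were called lower again and 1411 had a negative difference, while 76 rows were called in opposite directions. Larger differences recurred more often, with 92.7% of the 1664 rows of at least 4-fold and 96.6% of the 207 rows of at least 16-fold called the same way. Matching shares over all fitted rows called under control light were not computed, so this recurrence cannot be read as particular to the compared rows. Calls at both light levels came from 1 model with a shared variance for each row, so part of this recurrence is built in. Across rows, the log2 differences at both light levels had Pearson's r = 0.846 and Spearman's rho = 0.775 (n = 12299 rows), as a description, since rows are not independent and both comparisons share the species, the reference and the row numbering. Rows called higher under control light took 59.4% ± 2.14 of TPM in F. trinervia and 23.3% ± 1.33 in F. ramosissima under high light, and rows called lower took 16.4% ± 1.02 and 40.2% ± 1.05 (SD, n = 3).

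**Figure D5:**
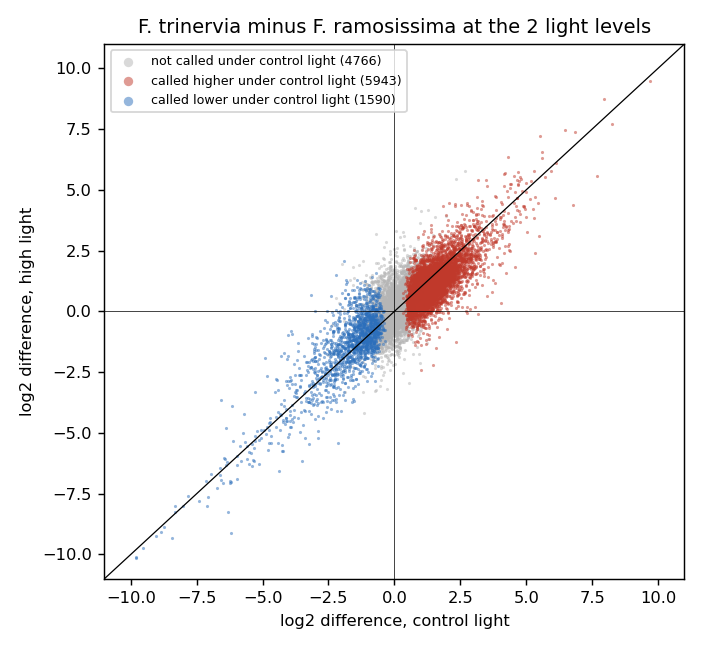
Log2 difference between F. trinervia and F. ramosissima under control light (x axis) and under high light (y axis) for each compared row; red and blue points are rows called higher and lower under control light, grey points are not called, and the diagonal marks equal differences. Points lie along the diagonal with r = 0.846, and the most extreme rows keep their side.

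The difference between light levels was tested by its own contrast, and it passed for 440 rows (3.58%, against 3.02% of all rows fitted). In 272 of them the difference was more positive under control light and in 168 more negative. Of all rows fitted, 1.8% passed as more positive and 1.22% as more negative. Rows numbered up to 19000 held 223 of the 440 compared rows and rows above 19000 held 217. This count rested on single libraries and on the weighting of species. It was 127 and 112 without F. trinervia control replicates 1 and 2, 742 without F. ramosissima control replicate 2, and 135 when each species was weighted by its own spread.

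Levels in F. robusta are given as a description, with no test. In the 1175 rows called higher in F. trinervia by at least 4-fold, the median level was 34 TPM in F. trinervia, 4.45 TPM in F. ramosissima and 12.6 TPM in F. robusta, whose mean lay between the other two in 805 rows, above both in 121 and below both in 249. In the 489 rows called lower by at least 4-fold, the medians were 4.57, 63.4 and 15.7 TPM, and F. robusta lay between in 226 rows, below both in 171 and above both in 92. Among all compared rows it lay between in 4603, above both in 3999 and below both in 3697. The lower rows differed between the blocks. Up to 19000, F. robusta had a median of 37.6 TPM and was below 1 TPM in 26 of 232 rows (11.2%), while above 19000 it had a median of 3.77 TPM and was below 1 TPM in 103 of 257 rows (40.1%). In the rows called higher by at least 4-fold, the shares below 1 TPM were 7.71% up to 19000 and 15.7% above. Their F. robusta medians were 12.2 and 13.3 TPM. Of all compared rows, 12% were below 1 TPM in F. robusta, a share that is not split by block.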

How the data were processed

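RNA was sequenced from leaves of 3 Flaveria species. The authors deposited 1 table of TPM values, and the submitters' processing notes name RSEM and edgeR without versions. Neither the reference used nor how rows were matched across species is given in the sources used here. Of 30041 rows, 1 held a value that was not numeric and was left out. In the column names, L was read as control light, and the growth protocol gives a chamber light below both levels. Values were transformed to log2(TPM + 1), which understates differences of low rows. Rows whose mean reached 1 TPM in any of the 6 groups (23162) were fitted with limma (version 3.58.1, R version 4.3.3; 6 groups, 12 residual degrees of freedom, abundance trend, two-sided), and p-values were Benjamini-Hochberg adjusted over all rows fitted, with a threshold of 0.05. Library values were compared by two-sided exact permutation tests. Median-ratio factors came from 13268 rows above 0 in all 18 libraries. Printed row numbers are, in each block, the largest rise and fall among rows called in both fits, with at least 5 TPM in each species and no overlap. In the 6 libraries alone, their limma adjusted p was 7.69e-05 (Gene14852), 0.00015 (Gene07052), 0.0103 (Gene25356) and 5.5e-06 (Gene21098). These are larger than in the model of 18 libraries, whose variance for each row is shared by all species. The compared rows, tests and blocks were chosen with earlier results of these data known. The scripts were tested on simulated data. Alternatives are given in the closing section.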

Additional observations from a re-analysis of the deposited data

Results flagged for a closer look

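Of the 4 printed rows, Gene14852 had a species difference that itself differed between the light levels, by 2.40 on the log2 scale and more positive under control light (limma adjusted p = 0.0395, 3 libraries per group). The call did not hold without F. trinervia control replicate 1 (adjusted p = 0.105, limma) or 2 (0.107), without F. ramosissima control replicate 1 (0.0737), after median-ratio scaling (0.0599) or with a pseudocount of 0.1 (0.0502). All 3 high light libraries of F. trinervia (1111, 1031 and 1129 TPM) lay below its 3 control libraries (3530, 3344 and 2664 TPM), while in F. ramosissima the high light libraries (56.9, 94.7 and 25.3 TPM) overlapped the control libraries (16.8, 27.5 and 46.6 TPM). The other 3 printed rows had no such call, with limma adjusted p between 0.608 and 0.965.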

How the results depend on the processing

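The 4 printed rows kept the direction and the call of their control light difference under every alternative that refitted the values. Settings that only changed which rows were compared left these fits as they were, so they could not test the printed rows. Requiring 1 TPM in each of the 6 libraries leaves out Gene25356, which had 0.06 and 0 TPM in replicates 2 and 3 of F. ramosissima. Leaving out 1 control library at a time gave 6896 to 7430 called rows, 5271 to 6045 higher and 1356 to 1734 lower, and 112 to 742 rows whose difference changed with light. Median-ratio scaling called 3325 compared rows higher and 3501 lower under control light, called 3075 and 3590 in the high light libraries, and gave 739 rows that changed with light. Of all rows fitted, it called 22.5% higher and 40.6% lower under control light, and 21.1% higher and 40.1% lower under high light. The scaling turned the median log2 difference negative over all compared rows (−0.031), over rows numbered up to 19000 (−0.11) and over the classes of 10 to 100 TPM (−0.014), 100 to 1000 TPM (−0.68) and above 1000 TPM (−0.29), but not over rows above 19000 or of 1 to 10 TPM. Scaling to the total of the compared rows, added after seeing the data, gave a median of 0.42 over all rows and −0.15 in the class of 100 to 1000 TPM. Quantile normalization gave medians of 0.38 at 100 to 1000 TPM and 0.33 above 1000 TPM and 718 rows that changed with light, and species weights gave 135. The cause of these shifts was not tested.

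Requiring 5 TPM in each species left 6985 rows, and with fewer rows 4110 were called (3102 higher, 1008 lower; 2264 up to 19000 and 1846 above) and 4095 under high light (2997 higher, 1098 lower). The counts of calls by block, abundance class and size of difference moved by more than 1.5 times under median-ratio scaling as well: to 1613 higher and 2070 lower rows up to 19000, 1712 and 1431 above, 1378 and 1256 at 1 to 10 TPM, 1743 and 1775 at 10 to 100 TPM, 180 higher at 100 to 1000 TPM, 24 higher above 1000 TPM, 434 and 929 at 4-fold or more, and 41 higher at 16-fold or more. Same-numbered replicates of the species did not deviate together (r = −0.0093, 0.0618 and −0.0238), and only replicate 2 correlated best with its own number. With the replicate block, 7763 rows were called (6110 higher, 1653 lower), and 6297 with the block in the 6 libraries alone. TPM keeps no read depth, so differences of low rows could not be judged against counting error.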
